A study of Mus musculus with 12 samples.

Results

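The T cell-attracting chemokines Cxcl9, Cxcl10, Cxcl11 and Cxcl16 were followed in resident macrophages (RM) of the colon and in dendritic cells positive for CD11b (CD11b+ DC), taken from mice that lack Runx3 in CD11c-expressing cells and of WT littermates. They are the 4 genes of a list of 4 that have a row carrying their symbol alone, among 19938 genes with such a row. They were chosen by name, with earlier results of these data known. Each of the 12 samples was RNA from a pool of 3 to 4 C57Bl/6 mice, male and female together and 6 to 8 weeks old, hybridized to an Affymetrix array. RM from Runx3 fl/fl CD11c-Cre mice (genotype label Runx3 -/-, named Runx3-cKO in the sample titles and Runx3Δ here) gave 4 samples, and RM from WT mice (Runx3 +/+) gave 3. CD11b+ DC from Runx3Δ mice gave 3 samples, and CD11b+ DC from WT mice gave 2. All cells were sorted from the cecum as Ly6c- cells positive for CD45, CD11c, MHCII and CD11b, with F4/80 present on RM and absent from CD11b+ DC. The Cre is driven by the CD11c promoter, which is active in both sorted populations and in other CD11c-expressing cells of the same mice.

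CXCR3 is a receptor of effector T cells and NK cells, and its ligands Cxcl9, Cxcl10 and Cxcl11 recruit these cells to inflamed tissue. Cxcl9 is induced mainly by IFN-γ, whereas Cxcl10 also responds to type I interferon and to NF-κB. Cxcl16 binds CXCR6 and is made as a membrane-anchored protein that Adam10 and Adam17 can release from the cell surface. Intestinal macrophages and DC are known sources of these chemokines.

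Cxcl9, Cxcl10 and Cxcl11 lie beside one another on chromosome 5, and Cxcl16 lies on chromosome 11. RefSeq lists Cxcl11 of this mouse strain as a transcribed pseudogene, and the other members as protein-coding. A promoter sequence was found for 2 of the 4 members, Cxcl9 and Cxcl10. They are shown because these neighbouring genes gave different fold changes by genotype. The 250 bases before each start are given 5′ to 3′ in the direction of transcription, from RefSeq on build GRCm38.p6, at chr5:92328080-92328329 (minus strand) for Cxcl9 and chr5:92348890-92349139 (minus strand) for Cxcl10, with motif matches in capitals.
Cxcl9: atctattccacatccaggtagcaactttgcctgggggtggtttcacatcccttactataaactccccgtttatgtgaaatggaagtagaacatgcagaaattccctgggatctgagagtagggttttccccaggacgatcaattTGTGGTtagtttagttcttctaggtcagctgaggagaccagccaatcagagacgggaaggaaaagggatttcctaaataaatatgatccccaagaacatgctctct
Cxcl10: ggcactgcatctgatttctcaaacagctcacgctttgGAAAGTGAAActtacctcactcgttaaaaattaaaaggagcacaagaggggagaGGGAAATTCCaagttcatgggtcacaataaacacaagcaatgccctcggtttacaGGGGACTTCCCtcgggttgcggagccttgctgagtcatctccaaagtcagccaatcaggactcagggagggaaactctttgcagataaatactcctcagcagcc
The capitals in the Cxcl9 promoter mark a match to the RUNX motif TGTGGT, 106 to 101 bases before the start. Those in the Cxcl10 promoter mark an interferon-stimulated response element (ISRE, searched as a pair of GAAA repeats 2 bases apart) 213 to 204 bases before the start, and NF-κB matches at 2 places, 159 to 150 and 104 to 94 bases before the start. Both strands were searched, and overlapping NF-κB matches were joined. Of 32851 promoters of this length, 14.0% held the RUNX motif, 2.98% the ISRE, 7.25% the NF-κB motif and 7.02% the IFN-γ-activated site TTCNNNGAA. Neither promoter held the last of these, the Cxcl10 window held no TGTGGT, and the Cxcl9 window held no ISRE or NF-κB match. These matches describe the letters only.

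Most markers of the 2 cell types went with the labels. The marker lists were chosen with earlier results of these data known, so this is not an independent check. Over all rows 7.85% differed between the cell types at an adjusted p under 0.05 in Runx3Δ cells and 6.07% in WT cells, both directions together. Of 12 RM markers, 11 were higher in RM than in CD11b+ DC at an adjusted p under 0.05 in Runx3Δ cells and also 11 in WT cells, and of 12 CD11b+ DC markers 9 were lower in Runx3Δ RM and 10 in WT RM than in the CD11b+ DC of the same genotype. One RM sample, Runx3Δ replicate 1, had the lowest mean correlation with the other RM samples (0.9797, against 0.983 to 0.9875). Without it the log2 fold change by genotype in RM was 1.35 for Cxcl9, -0.35 for Cxcl10, -0.06 for Cxcl11 and -0.11 for Cxcl16, with none past the adjusted threshold. The probes of Runx3 run along the whole gene while the deletion removes exon 3, so the level of the row does not check the deletion. It averaged 9.94 in Runx3Δ RM and 9.69 in WT RM, and 10.04 in Runx3Δ and 10.05 in WT CD11b+ DC, on the log2 intensity scale.

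Cxcl9 was higher in all Runx3Δ samples than in all WT samples of the same cell type, in RM and in CD11b+ DC. In RM its log2 level (probe set 10531407) was 12.19, 12.59, 12.40 and 12.63 in the 4 Runx3Δ samples, and 11.73, 10.41 and 11.43 in the 3 WT samples. In CD11b+ DC it was 12.03, 12.06 and 12.22 in the Runx3Δ samples, and 10.73 and 11.33 in the WT samples. The WT samples thus lay below and spread more widely, with an SD of 0.20 in Runx3Δ RM and 0.69 in WT RM. The log2 fold change in RM was 1.27 (SE 0.27, 95% interval 0.67 to 1.86, that is 2.40-fold), with an unadjusted p of 0.000653 and an adjusted p of 0.212 in limma over all 35556 rows. In CD11b+ DC it was 1.08 (SE 0.32, 0.37 to 1.79, that is 2.11-fold), with an unadjusted p of 0.00642 and an adjusted p of 0.514. Neither passed the adjusted threshold of 0.05, which 5 rows (0.0141%) passed in RM, or 8 rows with the litter as a replicate block, and 0 rows (0.00%) in CD11b+ DC, where 2395 rows had an unadjusted p under 0.05 and the methods' unmoderated test also left none.

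**Figure D1:**
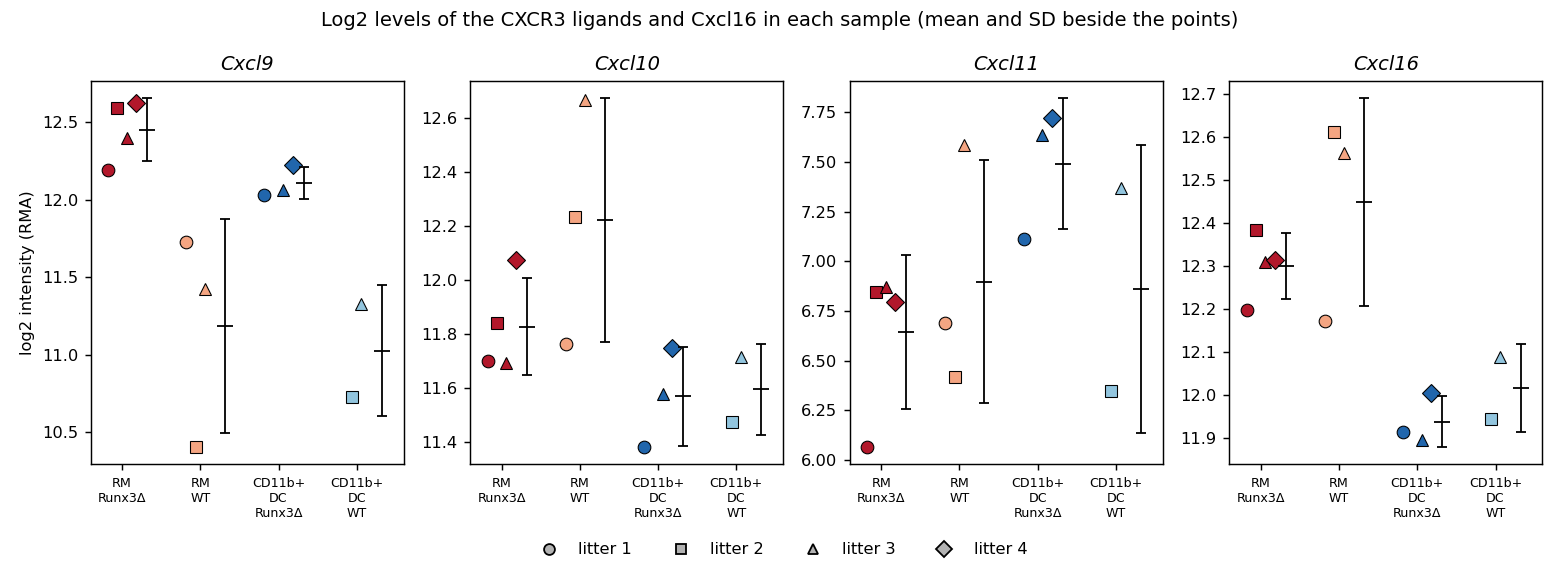
Log2 intensity of each chemokine in each sample, with Runx3Δ left of WT for RM and then for CD11b+ DC. The marker shape gives the litter, and the bar beside the points is the mean with its SD. All Runx3Δ points of Cxcl9 lie at 12.03 or above and all WT points at 11.73 or below.

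Cxcl9 passed the thresholds of the study (1.5-fold and an unadjusted p of 0.05) in both cell types. In RM 0.728% of all rows passed them in the higher direction, in CD11b+ DC 0.633% did, and 46 rows (0.129%) did in both. Its groups were apart in both cell types, with Runx3Δ above WT, as were those of 4.12% of all rows in RM, of 13.1% in CD11b+ DC and of 345 rows (0.970%) in both. Ranked by p with 1 row per gene, Cxcl9 stood at place 74 of 19938 genes in RM and at place 289 in CD11b+ DC. Cxcl9 is among the genes that the study itself singled out on these samples, so its direction here is not independent evidence. The paper also reports qPCR for several genes changed in RM and lists primers for Cxcl9. In sorted bulk samples more cells of a kind and more RNA per cell cannot be told apart. The genotype effect was 0.19 larger in RM than in CD11b+ DC (SE 0.42, 95% interval -0.74 to 1.11), a difference smaller than its error.

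Litter numbers allowed a comparison within litters. In RM the Runx3Δ sample exceeded the WT sample by 0.46 in litter 1, by 2.19 in litter 2 and by 0.97 in litter 3. In CD11b+ DC litter 3 alone had both genotypes, and the difference was 0.74. All 4 within-litter differences of Cxcl9 pointed the same way, and their size varied with the WT sample. With the litter as a replicate block the log2 fold change was 1.20 in RM (adjusted p 0.207) and 0.80 in CD11b+ DC (adjusted p 0.959). Without WT RM replicate 2, which had the lowest Cxcl9, the RM value was 0.88. Without WT CD11b+ DC replicate 1 the CD11b+ DC value was 0.78 with an unadjusted p of 0.079, so there Cxcl9 no longer met the thresholds of the study.

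Cxcl10, from the same gene cluster as Cxcl9, was not higher on average in Runx3Δ cells. Its log2 level (probe set 10531415) in RM was 11.70, 11.84, 11.70 and 12.08 in Runx3Δ samples, and 11.76, 12.23 and 12.67 in WT samples. In CD11b+ DC it was 11.38, 11.58 and 11.75 in Runx3Δ samples, and 11.48 and 11.71 in WT samples. The genotypes overlapped in both cell types, with WT RM replicate 3 the highest of the 12 samples. The log2 fold change was -0.39 in RM (SE 0.19, 95% interval -0.81 to 0.02, adjusted p 0.650) and -0.03 in CD11b+ DC (SE 0.23, -0.52 to 0.47, adjusted p 0.991). The RM value moved to -0.17 without WT RM replicate 3 and to -0.62 without WT RM replicate 1. In RM the interval of Cxcl10 ended below that of Cxcl9 (0.67 to 1.86), whereas in CD11b+ DC it overlapped with that of Cxcl9 (0.37 to 1.79). The difference between the genes was not tested. Within litters the RM differences were -0.06, -0.39 and -0.97.

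Cxcl11 scattered between the samples of a group, and its genotypes did not differ beyond that spread. In RM its log2 level (probe set 10531420) was 6.07, 6.85, 6.87 and 6.79 in Runx3Δ samples, and 6.69, 6.42 and 7.59 in WT samples. In CD11b+ DC it was 7.11, 7.63 and 7.72 in Runx3Δ samples, and 6.35 and 7.37 in WT samples. In each cell type the WT samples spanned a wider range than the Runx3Δ samples and overlapped with them. The log2 fold change was -0.26 in RM (SE 0.33, 95% interval -0.98 to 0.47, adjusted p 0.880) and 0.63 in CD11b+ DC (SE 0.39, -0.23 to 1.49, adjusted p 0.817). The RM value was -0.06 without Runx3Δ RM replicate 1, and turned to 0.09 without WT RM replicate 3. The CD11b+ DC value was 0.12 without WT replicate 1 and 1.14 without WT replicate 2, so a WT sample decided it. The difference between the genotype effects, RM minus CD11b+ DC, was -0.89 (SE 0.51, -2.01 to 0.24, adjusted p 1.00), and -0.69 without Runx3Δ RM replicate 1.

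Cxcl16 varied least of the 4 genes within groups. In RM its log2 level (probe set 10387890) was 12.20, 12.38, 12.31 and 12.31 in Runx3Δ samples, and 12.17, 12.61 and 12.56 in WT samples. In CD11b+ DC it was 11.915, 11.895 and 12.005 in Runx3Δ samples, and 11.944 and 12.088 in WT samples. Genotypes overlapped, whereas every RM sample lay above every CD11b+ DC sample. The log2 fold change by genotype was -0.15 in RM (SE 0.11, 95% interval -0.39 to 0.10, adjusted p 0.786) and -0.08 in CD11b+ DC (SE 0.13, -0.37 to 0.21, adjusted p 0.967). In folds these intervals run from 0.762 to 1.07 in RM and from 0.774 to 1.16 in CD11b+ DC.

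**Figure D2:**
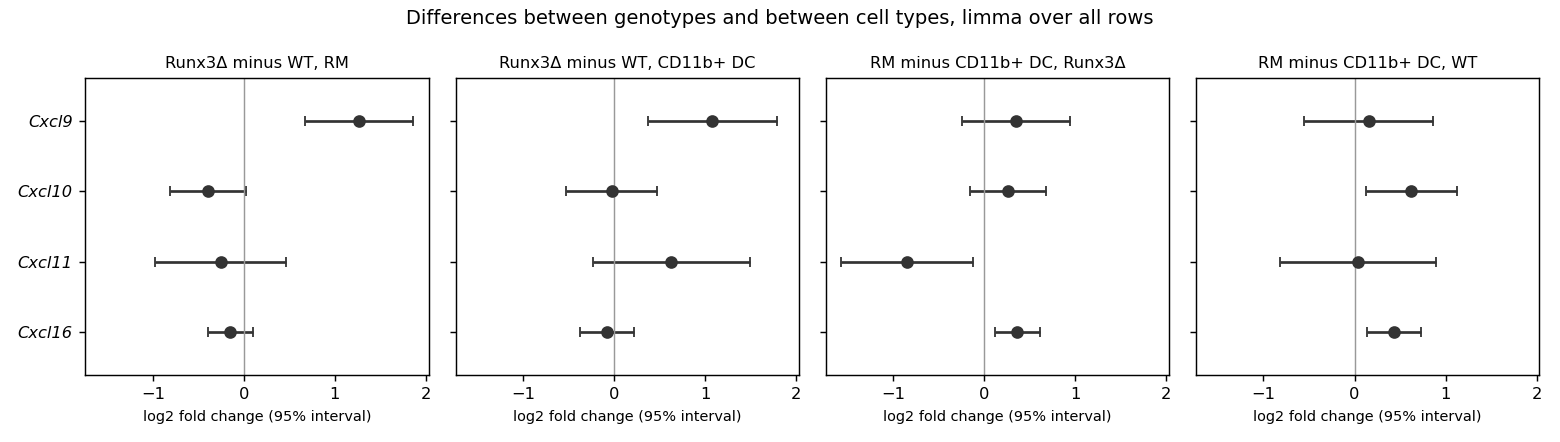
Log2 fold change of each chemokine with its 95% interval (limma over all rows), for the genotypes within RM and within CD11b+ DC and for the cell types within Runx3Δ and within WT. The genotype intervals leave out 0 for Cxcl9 only, and the cell type intervals leave out 0 for Cxcl16 in both genotypes, for Cxcl11 in Runx3Δ and for Cxcl10 in WT.

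Between the cell types Cxcl16 had the steadiest difference. RM exceeded CD11b+ DC by 0.36 in Runx3Δ cells (SE 0.11, 95% interval 0.12 to 0.61, adjusted p 0.0778) and by 0.43 in WT cells (SE 0.13, 0.14 to 0.73, adjusted p 0.0926). The adjusted threshold, which 7.85% of rows passed in Runx3Δ cells and 6.07% in WT cells, was missed in both. Both were below it with 1 row per gene (adjusted p 0.0416 in Runx3Δ and 0.0491 in WT cells) and without WT RM replicate 1 (0.0191 in Runx3Δ and 0.00862 in WT cells). Most alternatives left it missed, 18 of 22 in Runx3Δ and 20 of 22 in WT cells. With median centring the adjusted p was 0.139 in Runx3Δ and 0.110 in WT cells. With only the groups compared it was 0.318 in WT cells. Within litters RM was above CD11b+ DC in 5 of 5 comparisons of Cxcl16, by 0.28, 0.41 and 0.31 in Runx3Δ litters 1, 3 and 4 and by 0.67 and 0.47 in WT litters 2 and 3. The cell types were apart with RM higher in 9.32% of rows in Runx3Δ cells, in 16.1% in WT cells and in 5.25% in both, which is 1867 rows. Markers of B and plasma cells were also higher in RM, for 6 of 6 genes in both genotypes, with a mean level per sample of 8.75 to 9.27 in Runx3Δ RM and 7.80 to 8.60 in Runx3Δ CD11b+ DC, and of 8.38 to 9.83 in WT RM and 7.58 to 8.32 in WT CD11b+ DC, and their part in the values of Cxcl16 was not tested.

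The other members showed smaller or less regular differences between the cell types. Cxcl10 was 0.26 higher in Runx3Δ RM than in Runx3Δ CD11b+ DC (adjusted p 0.553) and 0.63 higher in WT RM than in WT CD11b+ DC (SE 0.23, adjusted p 0.164). In WT cells its groups did not overlap, as in 16.1% of rows with RM higher. Without WT RM replicate 1 the WT difference was 0.85 with an adjusted p of 0.0216. Cxcl11 was 0.85 lower in Runx3Δ RM than in Runx3Δ CD11b+ DC (log2 difference -0.85, SE 0.33, adjusted p 0.174), again with no overlap, as in 10.2% of rows. It was -0.66 without Runx3Δ RM replicate 1. In WT cells the difference of Cxcl11 was 0.04 (SE 0.39). For Cxcl9 the cell types differed by 0.34 in Runx3Δ cells (SE 0.27, 95% interval -0.25 to 0.94, adjusted p 0.582) and by 0.16 in WT cells (SE 0.32, -0.55 to 0.87), and overlapped in both. Within litters RM was above CD11b+ DC for Cxcl9 by 0.16, 0.33 and 0.40 in Runx3Δ litters 1, 3 and 4, and differed by -0.32 and 0.10 in WT litters 2 and 3. Fitted on the Runx3Δ samples alone, the difference of 0.34 had an unadjusted p of 0.0266 and an adjusted p of 0.174. Of 22 alternatives this was the only 1 with an unadjusted p under 0.05, and in the main limma fit that p was 0.227.

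The order of the 4 groups differed among the genes. Cxcl9 was ordered by genotype, with means of 12.45 ± 0.20 (SD, n = 4) in Runx3Δ RM and 12.11 ± 0.10 (n = 3) in Runx3Δ CD11b+ DC, above 11.19 ± 0.69 (n = 3) in WT RM and 11.03 ± 0.43 (n = 2) in WT CD11b+ DC. Between neighbours of 1 genotype the 95% interval of the difference included 0. Cxcl16 was ordered by cell type, with 12.30 ± 0.08 in Runx3Δ RM and 12.45 ± 0.24 in WT RM, above 11.94 ± 0.06 in Runx3Δ and 12.02 ± 0.10 in WT CD11b+ DC. Cxcl10 had the same order as Cxcl16, with 11.83 ± 0.18 in Runx3Δ RM and 12.22 ± 0.45 in WT RM, and 11.57 ± 0.18 in Runx3Δ and 11.60 ± 0.17 in WT CD11b+ DC, but single samples of the cell types overlapped. Cxcl11 was highest on average in Runx3Δ CD11b+ DC at 7.49 ± 0.33, followed by 6.90 ± 0.61 in WT RM, 6.86 ± 0.72 in WT CD11b+ DC and 6.64 ± 0.39 in Runx3Δ RM. Only Runx3Δ RM lay wholly below Runx3Δ CD11b+ DC, and both WT groups overlapped with each of the Runx3Δ groups.

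**Figure D3:**
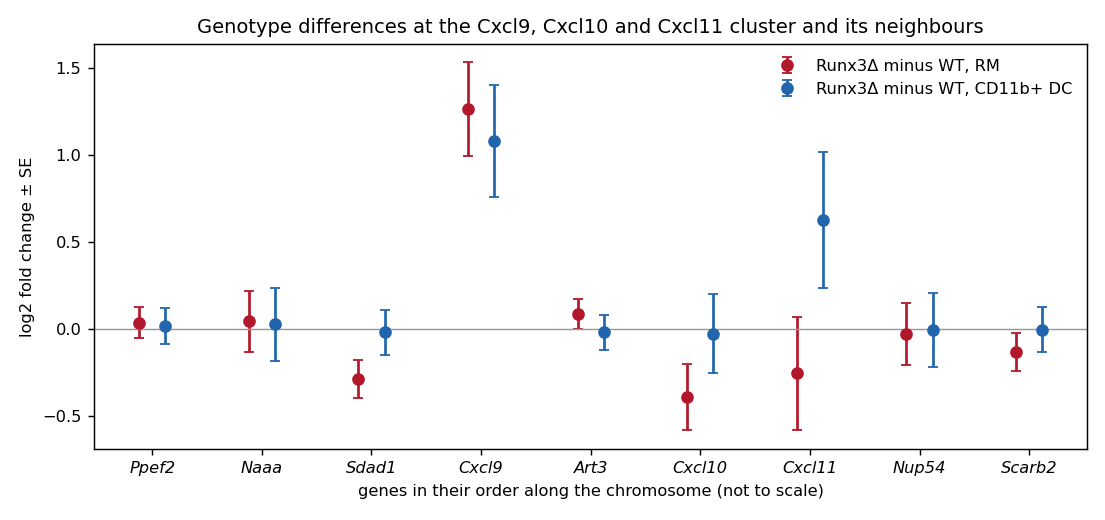
Log2 fold change with its SE, Runx3Δ minus WT, in RM and in CD11b+ DC, for Cxcl9, Cxcl10 and Cxcl11 and the 6 genes within 100 kb of them, in chromosomal order and not to scale. Cxcl9 stands at 1.27 and 1.08, and the 6 neighbouring genes lie between -0.29 and 0.09. Of these, Art3 and Ppef2 were dim in all groups, with a log2 level under 5.

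At the chromosome 5 cluster Cxcl9 was the only gene past the thresholds of the study by genotype. The neighbouring genes Ppef2, Naaa, Sdad1, Art3, Nup54 and Scarb2 had log2 fold changes of -0.29 to 0.09 in RM and of -0.02 to 0.03 in CD11b+ DC, and 0 of 6 passed the thresholds of the study in either (1.46% of all rows passed them in RM and 2.13% in CD11b+ DC, both directions together). Art3, whose RefSeq span covers Cxcl10 and Cxcl11, changed by 0.09 in RM and by -0.02 in CD11b+ DC. Its group means were 3.47 to 3.55 and those of Ppef2 4.14 to 4.28, under a log2 level of 5, taken as dim. At such levels a change may go unseen, so the fold changes of Art3 and Ppef2 say little. On chromosome 11, Zmynd15 overlaps Cxcl16 in position and also had more signal in RM, by 1.35 in Runx3Δ cells (adjusted p 0.00501) and by 1.72 in WT cells (adjusted p 0.00428). Whether probes of the overlapping pair share sequence was not tested.

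Receptors and processing enzymes of these ligands showed few differences by genotype. Of 6 such genes 0 passed the thresholds of the study in the higher direction in either cell type (0.728% of all rows in RM and 0.633% in CD11b+ DC), and 1, Dpp4, passed them in the lower direction in RM (0.731% of all rows). Dpp4, a peptidase that trims CXCR3 ligands and also marks CD11b+ DC, was 8.72 ± 0.32 in Runx3Δ RM and 9.34 ± 0.33 in WT RM, a log2 fold change of -0.62 (unadjusted p 0.00637, adjusted p 0.410). Cxcr3 itself gave 6.21 ± 0.31 in Runx3Δ RM and 6.30 ± 0.24 in WT RM, and 5.48 ± 0.19 in Runx3Δ and 5.37 ± 0.15 in WT CD11b+ DC. It was higher in RM than in CD11b+ DC by 0.73 in Runx3Δ cells (adjusted p 0.0264) and by 0.93 in WT cells (adjusted p 0.0234). Cxcr6, the receptor of Cxcl16, was at 5.18 ± 0.31 in Runx3Δ RM and 4.72 ± 0.38 in WT RM (log2 fold change 0.46, adjusted p 0.612). Its RM samples of both genotypes lay on either side of the log2 level of 5 taken as dim. Adam17, which can cleave Cxcl16, was higher in RM than in CD11b+ DC by 0.57 in Runx3Δ cells (adjusted p 0.00746) and by 0.90 in WT cells (adjusted p 0.00176), and Adam10 by 0.56 (adjusted p 0.00669) and 0.47 (adjusted p 0.0504).

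Genes of the IFN-γ response mostly lay on the side of Cxcl9. Of 21 measured genes of 26 listed, 19 had a log2 fold change above 0 in RM and 18 in CD11b+ DC, with medians of 0.36 and 0.53, beside 0.01 over all genes in each. In RM 7 of them, and in CD11b+ DC 6, passed the thresholds of the study in the higher direction (0.728% and 0.633% of all rows), and 0 passed the adjusted threshold. Nlrc5, the transactivator of MHC class I genes, was 9.98 ± 0.17 in Runx3Δ RM and 9.15 ± 0.11 in WT RM, a log2 fold change of 0.83 (adjusted p 0.0656), and differed by 0.69 in CD11b+ DC (adjusted p 0.265). Nos2, the inducible nitric oxide synthase, was 8.24 ± 0.84 in Runx3Δ RM and 5.54 ± 0.19 in WT RM (log2 fold change 2.70, adjusted p 0.125). The GTPase Iigp1 differed by 1.33 and the peptide transporter Tap1 by 0.64 in RM. In CD11b+ DC Batf2 differed by 1.02, Ido1, which degrades tryptophan, by 0.88, and the immunoproteasome subunit Psmb9 by 0.53. The count of 7 in RM was 3 without Runx3Δ RM replicate 2 and 8, with a median of 0.48, without Runx3Δ RM replicate 1, and the count of 6 in CD11b+ DC was 3 without WT replicate 1 and 9 without Runx3Δ replicate 1.

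Genes of the type I interferon response lay on the other side in RM. All 21 measured genes of 24 listed had a log2 fold change below 0 there, with a median of -0.47, and 10 passed the thresholds of the study in the lower direction, beside 0.731% of all rows, and 0 after adjustment. Without WT RM replicate 3, the sample with the highest Cxcl10, 18 of 21 were below 0 and 2 passed, and without Runx3Δ RM replicate 1 these counts were 20 and 7. Ifit1 averaged 8.38 ± 0.42 in Runx3Δ RM and 9.75 ± 0.93 in WT RM (log2 fold change -1.37, adjusted p 0.387), and Ifit3 7.05 ± 0.12 in Runx3Δ RM and 8.13 ± 0.76 in WT RM (-1.08, adjusted p 0.351). The RNA sensor Ifih1 differed by -0.75 in RM and the helicase Ddx60 by -0.61. In CD11b+ DC the list was split, with 10 genes above and 11 below 0, but the 4 genes past the thresholds of the study were all lower and 0 were higher, beside 533 of 35556 rows that were lower. They were Ifih1 at -0.82, Oasl1 at -0.91, Ifit1 at -1.18 and Mx2, an antiviral GTPase, at -1.40. Leaving out WT CD11b+ DC replicate 1 moved the median of the list to -0.35, with 5 lower and 0 higher calls, and leaving out WT CD11b+ DC replicate 2 moved it to 0.34, with 1 lower and 3 higher calls. The interaction of genotype with cell type was past the adjusted threshold for 0 of the 21 genes, as for 0 of all rows (0.00%), where 1391 rows had an unadjusted p under 0.05.

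**Figure D4:**
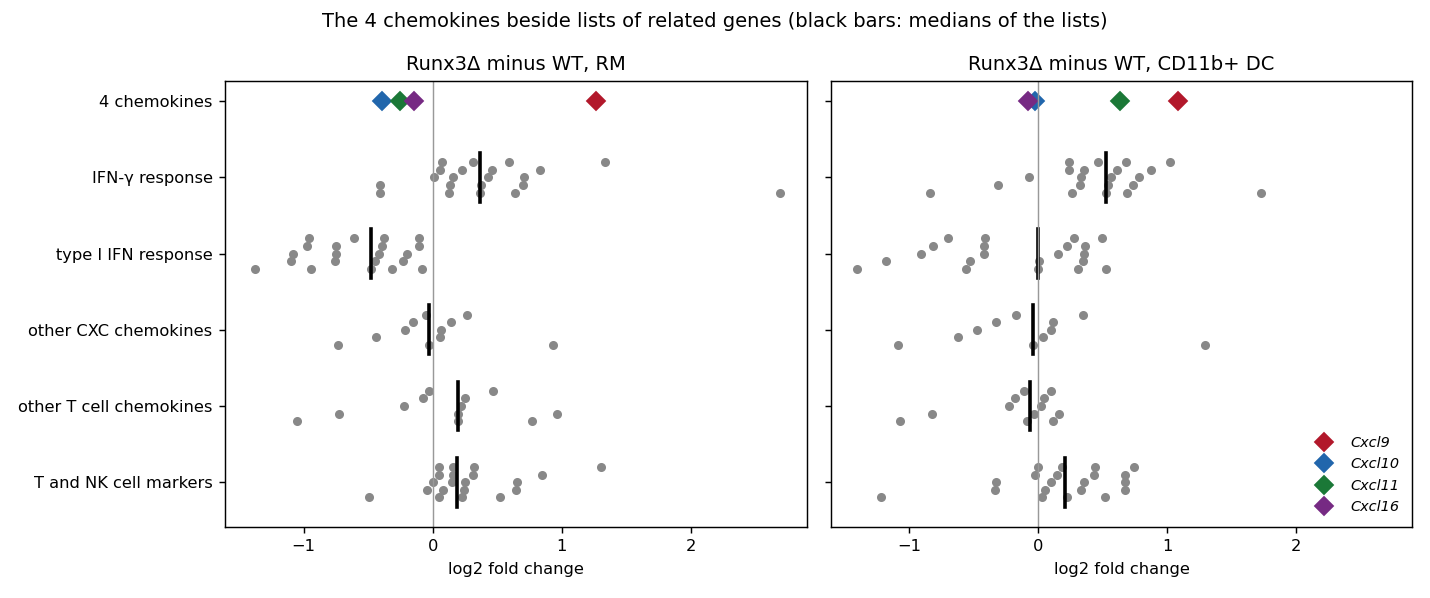
Log2 fold change, Runx3Δ minus WT, of the 4 chemokines (diamonds) and of the genes of 5 lists (grey points, 1 per gene, with the median as a black bar), in RM on the left and CD11b+ DC on the right. In RM the median is 0.36 for IFN-γ response genes and -0.47 for type I interferon response genes, with Cxcl9 at 1.27 and Cxcl10 at -0.39.

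Among genes of IFN-γ production and signalling, 12 of 13 listed were measured, and their directions were mixed. In RM 7 had a log2 fold change above 0 and 5 below, with a median of 0.18. In CD11b+ DC 9 were above and 3 below, with a median of 0.09, beside 0.01 over all genes in each cell type. Il12a, a subunit of interleukin 12, averaged 6.25 ± 0.46 in Runx3Δ RM and 5.13 ± 0.37 in WT RM (log2 fold change 1.12, unadjusted p 0.000788, adjusted p 0.214), and differed by 1.05 in CD11b+ DC (adjusted p 0.476). Ifng averaged 5.42 ± 0.53 in Runx3Δ RM and 4.72 ± 0.14 in WT RM (log2 fold change 0.70, adjusted p 0.516), and differed by 0.04 in CD11b+ DC. All WT RM samples of Ifng were under a log2 level of 5, taken as dim, and so was the lowest Runx3Δ RM sample, at 4.92. Irf8, a transcription factor of the IFN-γ pathway, differed by 0.31 in RM and by 0.52 in CD11b+ DC. Jak1 went the other way in CD11b+ DC, by -0.27 (adjusted p 0.624). None of the 12 passed the adjusted threshold by genotype.

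T and NK cells are the usual source of Ifng, and their markers were read beside these results. Of 21 markers 20 were measured, and 18 had a log2 fold change above 0 in RM and 15 in CD11b+ DC, with medians of 0.19 and 0.21. Over all 19938 genes 10493 were above 0 in RM and 10519 in CD11b+ DC, with a median of 0.01 in each. Their mean level per sample ran from 5.97 to 6.48 in Runx3Δ RM and from 5.61 to 6.13 in WT RM, and from 6.18 to 6.26 in Runx3Δ and 6.03 to 6.04 in WT CD11b+ DC. Gzma, a granzyme of cytotoxic cells, was the only one of them past the thresholds of the study in the higher direction in RM, beside 0.728% of all rows. It was at 5.38 ± 0.56 in Runx3Δ RM and 4.08 ± 0.51 in WT RM (log2 fold change 1.30, adjusted p 0.344). All its WT RM samples were under a log2 level of 5, taken as dim. In CD11b+ DC 1 marker passed in each direction, beside 0.633% of all rows that were higher and 533 of 35556 rows that were lower. Tbx21 was the higher one, at 6.85 ± 0.19 in Runx3Δ and 6.18 ± 0.12 in WT samples. Cd2 was the lower one, at 7.59 ± 0.03 in Runx3Δ and 8.81 ± 0.39 in WT samples. Of the 20 markers 8 were apart with Runx3Δ higher, beside 13.1% of all rows. Of the defining CD3 chains, Cd3e was at 7.75 ± 0.67 in Runx3Δ RM and 7.09 ± 0.56 in WT RM, and at 7.20 ± 0.13 in Runx3Δ and 6.85 ± 0.04 in WT CD11b+ DC. Cd3g was at 6.13 ± 0.55 in Runx3Δ RM and 5.49 ± 0.91 in WT RM, and at 5.78 ± 0.05 in Runx3Δ and 5.11 ± 0.14 in WT CD11b+ DC. Both were above the log2 level of 5 taken as dim, and neither passed the thresholds of the study. The third chain, Cd3d, was at 4.83 ± 0.19 in Runx3Δ RM and 4.51 ± 0.20 in WT RM, and at 4.62 ± 0.14 in Runx3Δ and 4.19 ± 0.25 in WT CD11b+ DC. These means were all under the dim level, and the highest Runx3Δ RM sample of Cd3d was at 5.09. The part of such cells in the values of Cxcl9 was not tested. The markers of other cells had median log2 fold changes in RM of -0.03 for cDC1, -0.10 for monocytes, 0.06 for B and plasma cells, 0.20 for epithelium and -0.17 for stroma and endothelium, and in CD11b+ DC of -0.04, -0.33, 0.08, 0.33 and -0.47 in the same order.

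Other chemokines did not share the pattern of Cxcl9. Of 11 other CXC chemokines 5 were above and 6 below 0 in RM and likewise in CD11b+ DC, with 1 past the thresholds of the study in the higher direction in each (0.728% of all rows in RM and 0.633% in CD11b+ DC). In the lower direction 0 passed in RM and 2 in CD11b+ DC, where 533 of all 35556 rows did. Those that were higher were Ppbp in RM, at 7.09 ± 0.59 in Runx3Δ and 6.16 ± 0.66 in WT samples, and Cxcl13, which attracts B cells, in CD11b+ DC, at 6.99 ± 0.59 in Runx3Δ and 5.70 ± 0.06 in WT samples. The neutrophil chemokine Cxcl2 differed by -0.44 in RM and by -0.62 in CD11b+ DC, and Cxcl3 by -1.09 in CD11b+ DC, both past the thresholds there. Of 12 other chemokines that act on T cells, Ccl22 and Ccl17, ligands of CCR4, differed by 0.77 and 0.96 in RM, and the inflammatory chemokines Ccl4 and Ccl3 by -1.05 and -0.72 in RM and by -1.08 and -0.82 in CD11b+ DC. These were the 2 higher and 2 lower calls of that list in RM by the thresholds of the study, and its 0 higher and 2 lower calls in CD11b+ DC. None of these passed the adjusted threshold by genotype.

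Sample by sample, the 4 genes did not vary as 1 set. Over the 12 samples, as deviations from the group means, Cxcl10 went with Cxcl16 (Pearson's r 0.76) and with Cxcl11 (0.66), and Cxcl9 with Cxcl11 (0.62), whereas Cxcl9 and Cxcl10 were at 0.05 and Cxcl9 and Cxcl16 were at -0.35. These are descriptions over samples that share litters. Among 12211 genes with a mean log2 level of at least 5, those most like Cxcl9 in this measure were Otud1 (0.96), Tgm2 (0.95), Cfb (0.95), Pop7 (0.94) and Stx6 (0.94). The measure does not use the genotype difference. Named genes are the highest of 12211 values from 12 samples, and how high such values run by chance was not tested. Cfb, the complement factor B, differed between Runx3Δ and WT by 1.42 in RM and 1.71 in CD11b+ DC, and the transglutaminase Tgm2 by 0.36 and 0.67. Otud1 differed by -0.35 and -0.20, Pop7 by 0.01 and 0.23, and Stx6 by -0.08 and -0.11. For Cxcl10 the nearest were Il4ra (0.99), Ifih1 (0.93), Znfx1 (0.93), Renbp (0.92) and Mdfic (0.92), for Cxcl11 they were Ifi213 (0.96), Pdia3 (0.96), Pih1d1 (0.96), Rom1 (0.95) and P3h1 (0.94), and for Cxcl16 Zc3h7a (0.98), Dnaja1 (0.97), Fosl1 (0.97), Map3k8 (0.94) and Mcoln2 (0.93). Ifih1 and Ifi213, both interferon-induced, differed by -0.75 and -0.77 between Runx3Δ and WT RM.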

How the data were processed

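The authors processed the arrays with RMA in Partek, and the deposited values are log2 intensities, used here as deposited. Per the labels the build is mm9. The methods name a mouse exon array and the platform record a gene-level array, whose annotation named the rows: of 35556 rows 21789 carry 1 gene symbol, 1621 several and 12146 none. Where a gene had more than 1 row, its brightest row on average was taken. Levels of different probe sets are not compared. The number of arrays limits the precision.

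The 4 groups were fitted together over all rows with limma 3.58.1 (R 4.3.3, statmod 1.5.0), with Benjamini-Hochberg adjustment over all rows and a threshold of 0.05, for 5 comparisons: genotype in each cell type, cell type in each genotype, and the interaction. The thresholds of the study were counted beside it. The script was tested on simulated data. Figures used Python 3.11.15 and matplotlib 3.10.9. The members and gene lists were chosen with earlier results of these data known, and the neighbouring genes after seeing values, so no list was tested. Named genes are the members, Runx3, Cxcr3 and Cxcr6, up to 4 genes per list with the smallest p in the comparison described plus those past the adjusted threshold, and the 5 genes most correlated with each member. Mx2 in CD11b+ DC, Ifit1 in CD11b+ DC, Cd3e and Cd3g were named after their values were seen. Ifi213, Cfb and Tgm2 come from the last part. Art3, Zmynd15 and the other neighbours were named by position.

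Litter numbers come from the labels, and samples of 1 litter pair across groups. Deviations from group means correlated with a median r of 0.10 over 13 pairs of the same litter in different groups (-0.04 to 0.36) and -0.03 over 40 pairs of different litters. Each sample is a pool of cells from 3 to 4 mice. Whether RM and CD11b+ DC of 1 litter and genotype came from the same mice is not stated. The main fit treats them as independent samples.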

Additional observations from a re-analysis of the deposited data

Results flagged for a closer look

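Cxcl11 in Runx3Δ RM replicate 1 stood apart from the other 3 samples of its group, at a log2 level of 6.07 against 6.79 to 6.87, so that the gap to its nearest neighbour made up 0.906 of the range of the group. This RM sample also had the lowest mean correlation with the other RM samples. Of the 4 genes, each looked at in the only group of 4 samples, this was the only such case, and the 95% critical value of Dixon used to find it is passed by chance in about 1 of 20 groups. Its cause was not tested.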

How the results depend on the processing

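For each of the 4 genes and 5 comparisons up to 22 alternatives were computed. The adjusted p of Cxcl9 stayed above 0.05 in all of them, from 0.0627 to 0.522 in RM and from 0.195 to 1.00 in CD11b+ DC, and its direction by genotype did not turn. It met the thresholds of the study in 22 of 22 alternatives in RM and 21 of 22 in CD11b+ DC. Leaving out each sample in turn gave log2 fold changes of 0.88 to 1.54 in RM and 0.78 to 1.38 in CD11b+ DC for Cxcl9, -0.62 to -0.17 and -0.14 to 0.0943 for Cxcl10, -0.49 to 0.0893 and 0.12 to 1.14 for Cxcl11, and -0.29 to -0.07 and -0.15 to -0.01 for Cxcl16. Leaving out a WT CD11b+ DC sample leaves 1 array in that group, which is then assumed to vary like the others.

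Directions that turned were all of values that no setting called. Cxcl10 in CD11b+ DC was 0.07 without Runx3Δ CD11b+ DC replicate 1. For RM minus CD11b+ DC in WT cells, the leave-one-out values ran from -0.14 to 0.55 for Cxcl9, from 0.40 to 0.85 for Cxcl10, from -0.47 to 0.55 for Cxcl11 and from 0.35 to 0.57 for Cxcl16. In Runx3Δ cells they ran from 0.34 to 0.40 for Cxcl16, and the adjusted p fell to 0.0191 without WT RM replicate 1. For the difference of the genotype effects they ran from -0.20 to 0.49 for Cxcl9 and from -0.21 to 0.0118 for Cxcl16. Cxcl16 between the cell types in Runx3Δ cells was past the threshold with only the groups compared (0.36, adjusted p 0.0416), with quantile normalization (0.38, adjusted p 0.0425) and with 1 row per gene (0.36, adjusted p 0.0416), as was the WT difference with 1 row per gene (0.43, adjusted p 0.0491). With litter as a fixed replicate block Cxcl16 in CD11b+ DC turned to 0.0064, rows called by genotype in RM were 8 against 5, and no call of the 4 genes changed.

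Rows called by genotype in RM were 0 with only the groups compared and 0 in the methods' test, 8 with median centring, 47 with 1 row per gene (19938 tested), 29 without the leading unnamed rows and 4 to 63 with a sample left out. In CD11b+ DC, against 0, they were 6 with 1 row per gene and 0 to 7 with a sample left out. Between the cell types they were 883 in WT cells with only the groups compared, against 2160, and 1020 to 2611 with a sample left out; in Runx3Δ cells 1562 to 3320, against 2791. The interaction called 0 rows under limma in every setting run, with 1391 at an unadjusted p under 0.05. The cause of these differences was not tested. Under 15 alternatives chosen after seeing the data, 17 to 19 IFN-γ response genes were above 0 in RM and 18 in CD11b+ DC, and 18 to 21 type I interferon response genes were below 0 in RM and 8 to 14 in CD11b+ DC.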
